A study of Cricetiscus sungorus with 16 samples.

Results

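Ovulation and cumulus expansion genes are represented here by 8 genes: the epidermal growth factor (EGF)-like ligands Areg (NM_009704), Ereg (NM_007950) and Btc (NM_007568), their receptor Egfr (NM_207655), the matrix genes Has2 (NM_008216), Tnfaip6 (NM_009398) and Ptx3 (NM_008987), and the protease Adamts1 (NM_009621). They were found by these mouse RefSeq identifiers, among 33272 identifiers on the array. All 8 were present, with 12 probes, and 4 of them (Areg, Egfr, Ptx3 and Adamts1) were among the 20143 identifiers that passed the detection filter. The files pair no symbols with identifiers, so the symbols are those given with the gene list. Genome positions were not analysed here.

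In the preovulatory follicle, the surge of luteinising hormone makes granulosa cells release amphiregulin, epiregulin and betacellulin, which act on EGF receptors of granulosa and cumulus cells. Cumulus cells then lay down a hyaluronan matrix around the oocyte, which other secreted proteins cross-link and proteases later remodel. These steps are known mainly from mice, and the genes are also used outside the follicle.

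RNA came from both ovaries of each female Siberian hamster (written Cricetiscus sungorus in the labels), a species whose sexual maturation is slower in short days. The 4 groups were short days (SD, 10 h of light) at 8 wk of age, long days (LD, 16 h of light) at 8 wk, SD at 3 wk and LD at 3 wk, with 4 hamsters a group, each with its own animal code in the labels. Light was as stated from gestation on, and no other treatment and no allele or strain is stated for any group. The labels of the SD hamsters at 8 wk disagree: 10 h of light stands in their description, but 16 h in the title and the treatment field. These hamsters were treated as SD here. The stage of the ovarian cycle is not given in the sources used here. Each array took Cy3-labelled RNA of 1 hamster, and its probes were designed for mouse transcripts. Whether each probe bound the hamster's own version of its gene was not tested.

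Each of 4 slides held 1 array of every group, and replicates are numbered by slide. A group always had the same place on its slide, so place and group cannot be told apart. Signals well above background were found for 58.0% to 75.7% of probes. The arrays of slide 1 stood apart: their 75th percentile of intensity was at most 369.7, against at least 736.3 on slides 2 to 4, and 1.79% to 2.95% of their spots were outliers, against 0.148% to 0.477%. No cell type marker was matched to the array, so the makeup of the ovaries was not examined. In RNA of whole organs, fewer cells of a type and less RNA per cell cannot be told apart.

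The 8 genes differed widely in how well they were measured. Ptx3, Egfr and Adamts1 had a probe well above background on all 16 arrays, and Areg on 11, none of them from SD ovaries at 8 wk. Has2 was above background on 6 arrays, Tnfaip6 on 4, Ereg on 4 and the brighter Btc probe on 0. Levels are given below as log2 of the processed intensity minus the array's 75th percentile, so that 0 is the 75th percentile and each unit is a doubling. They compare samples for 1 probe and not genes with each other.

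**Figure D1:**
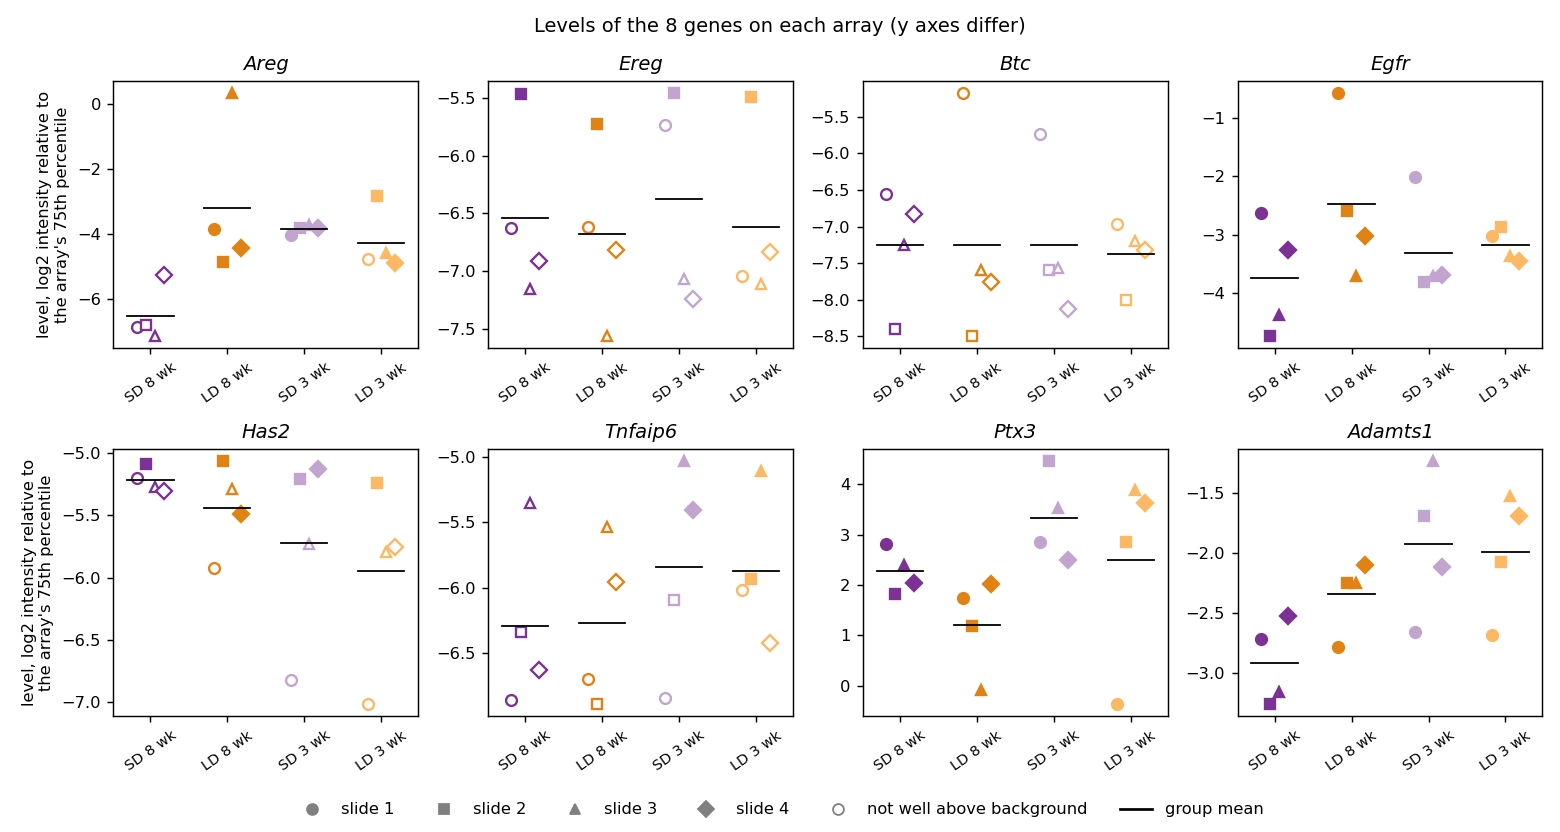
Level of each of the 8 genes on the 16 arrays (y axis, log2 intensity relative to the array's 75th percentile; the axes differ between panels), with 4 hamsters a group, symbols by slide and a line at the group mean. Open symbols are signals not well above background. Areg was not well above background in any SD ovary at 8 wk and reached 0.34 in 1 LD ovary at 8 wk.

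Of the 4 genes tested, 0 passed an adjusted p of 0.05 in any of 5 comparisons in limma's fit over 16 arrays. Of all 20143 identifiers, 0.958% passed for SD against LD at 8 wk, 0.0% for SD against LD at 3 wk, 9.15% for 8 against 3 wk in SD and 2.98% for 8 against 3 wk in LD. For the difference between the SD and LD age changes the share was 0.0596%. Unadjusted p-values under 0.05 were obtained for 2, 0, 2, 0 and 1 of the 4 genes in that order, and for 6.94%, 1.64%, 20.4%, 13.4% and 3.05% of all identifiers. With slide as a block, 2 of 4 passed in the SD age change, Adamts1 and Areg, both lower at 8 wk, where 23.1% of all identifiers passed and 12.2% passed as lower. Areg had entered the test through groups in which it was high, and its call was lost with the block and no detection filter (adjusted p = 0.0637). The block gave 0 of 4 in the other comparisons, where 2.62%, 0.0%, 11.9% and 0.174% of all identifiers passed in the same order. By an unadjusted p under 0.05, the block gave 3, 0, 0 and 1 of 4 in those comparisons, and 14.1%, 6.44%, 25.9% and 8.5% of all identifiers.

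**Figure D2:**
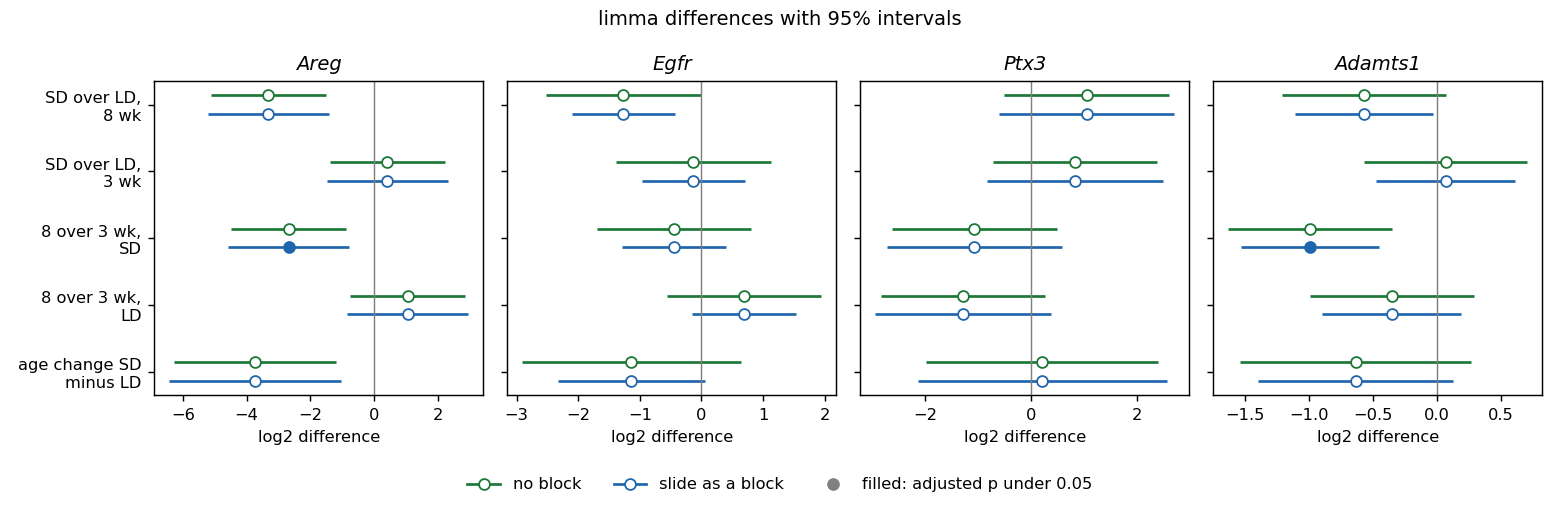
limma log2 differences (x axis) of the 4 tested genes in the 5 comparisons, with 95% intervals, without and with slide as a block, over 16 arrays. Filled symbols passed an adjusted p of 0.05, which happened for Areg and Adamts1 in the SD age change with the block (adjusted p = 0.0434 and 0.0125).

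Amphiregulin, encoded by Areg, is made as a membrane-bound precursor and shed to act on EGF receptors. At 8 wk the Areg level was -6.87, -6.82, -7.13 and -5.28 in the SD ovaries, none well above background. In the LD ovaries of that age it was -3.86, -4.88, 0.34 and -4.42, all well above background. At 3 wk it was -4.03, -3.83, -3.71 and -3.81 in SD ovaries, and -4.77, -2.82, -4.59 and -4.88 in LD ovaries, the first of these not well above background. The SD arrays at 8 wk thus had the lowest Areg values. How many identifiers have every array of a group below all others was not counted.

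The SD group at 8 wk overlapped neither the LD group of that age nor the SD group at 3 wk. Groups without overlap were found for 3.95% of 18648 identifiers in the first of these pairs (1.82% lower) and for 15.2% in the second (7.34% lower). The means were -6.52 ± 0.84 in SD and -3.21 ± 2.40 in LD at 8 wk, and -3.85 ± 0.13 in SD and -4.27 ± 0.97 in LD at 3 wk (standard deviation, n = 4). In order, LD at 8 wk was highest, then SD at 3 wk, then LD at 3 wk, and these 3 neighbours overlapped. SD at 8 wk came last, with no signal well above background. Its lack of overlap with LD at 3 wk cannot be judged, since no share of all identifiers was taken for that pair. Areg had passed the detection filter through the SD group at 3 wk and the LD group at 8 wk.

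Against LD at 8 wk, Areg was lower in SD by a log2 difference of -3.32 ± 0.85 (standard error, limma), and the adjusted p was 0.0909. It was 0.0705 with slide as a block, 0.212 without slide 1 and 0.387 in a fit of these groups alone. Over 49 alternatives it ranged from 0.0404 to 0.565, and 1 of them passed, the block without SD replicate 4. Since the SD signals were not well above background, the size was also taken with dim SD signals raised. On each SD array, the lowest signal well above background stood in for a dimmer one. By the group means, Areg was then 4.03-fold lower in SD than in LD at 8 wk, and 1.78-fold lower without LD replicate 3. This is no strict limit, since signals not well above background also occurred over that lowest one. On SD replicate 1 at 8 wk, the dimmer Adamts1 probe read -4.53 without being well above background, against a lowest usable signal of -4.63. With normexp background correction of median signals the difference was -0.88 (adjusted p = 0.432, limma), smaller than with dim signals raised. Within slides 1 to 4, Areg was 1.71-, 2.75-, 44.3- and 1.26-fold lower in SD than in LD with dim signals raised. The LD array of slide 3 gave the extreme value.

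In SD ovaries, with dim signals raised in the same way, Areg was 2.58-fold lower by the means at 8 than at 3 wk. The measured difference was -2.68 ± 0.85 on the log2 scale (adjusted p = 0.0614, limma), and -2.68 ± 0.88 with slide as a block (adjusted p = 0.0434). Fitted on the SD groups alone, where 8.58% of all identifiers passed, its adjusted p was 0.00376 (limma). In the fit over all groups without LD replicate 3 at 8 wk it was 0.00192, where 1838 of 20143 identifiers passed. Areg passed the detection filter partly through the SD group at 3 wk compared here, so these p-values give no separate support. Within slides 1 to 4, Areg was 1.52-, 5.70-, 2.68- and 1.92-fold lower at 8 wk with dim signals raised. This comparison and the one with LD at 8 wk share the SD arrays at 8 wk. The call depended on single arrays. With the block it held in 7 of 16 fits that left out an array, with adjusted p from 0.00203 to 0.144 (limma). In those 16 fits 3038 to 5421 of 20143 identifiers passed. The call failed without any of 4 SD arrays at 3 wk or any of 3 SD arrays at 8 wk (replicates 1, 2 and 3). It also failed without LD replicate 4 at 3 wk or LD replicate 1 at 8 wk. When dim signals were raised to that lowest usable signal, the difference was -1.37 (adjusted p = 0.281 with the block). Without slide 1 the difference was -2.63 (adjusted p = 0.149 with the block). With normexp it was -0.45 (adjusted p = 0.537, limma), smaller than with dim signals raised.

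In LD ovaries the age change of Areg was 1.06 ± 0.85 (adjusted p = 0.71, limma). Within slides 1 to 4 it was 0.91, -2.05, 4.93 and 0.46, higher at 8 wk on 3 slides and lower on 1. The mean was -0.12 without LD replicate 3 at 8 wk, so its sign depended on that hamster. Of 49 alternatives, 2 changed the sign. The age change in SD less that in LD was -3.74 ± 1.20, with an adjusted p of 0.88 over all identifiers. It takes in SD signals not well above background, and was -2.43 with dim signals raised as above (adjusted p = 1.0) and -2.56 without LD replicate 3 at 8 wk (adjusted p = 0.381). At 3 wk SD exceeded LD by 0.42 ± 0.85 (adjusted p = 1.0), with a 95% interval from -1.38 to 2.22.

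LD replicate 3 at 8 wk had an Areg intensity of 1256 and stood 18.3-fold above the next LD ovary of that age. The other 3 LD ovaries at 8 wk lay within 1.02 log2 units of each other. The same hamster had the lowest Ptx3 and Egfr levels of its group, -0.09 and -3.70. Its Adamts1 level of -2.25 lay inside the range of its group, and its Has2, Tnfaip6, Ereg and Btc signals were not well above background. None of the 3 other tested genes was at its group's highest level in that hamster.

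Epiregulin (Ereg), another EGF-like ligand released by granulosa cells, was near background everywhere. Its 4 signals well above background were all on slide 2, at 1 array per group: -5.47 in SD and -5.73 in LD at 8 wk, and -5.46 in SD and -5.49 in LD at 3 wk. The other 12 arrays lay between -7.55 and -5.74. Detection of Ereg thus went with the slide and not with age or day length.

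Betacellulin (Btc) completes the EGF-like ligands measured. Its brighter probe was not above background on any array, with levels from -8.49 to -5.18. The other probe was above background on 1 array, LD replicate 4 at 8 wk, at -5.51. No level of Btc can be set against another from these arrays.

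Egfr encodes the receptor through which these ligands act. Its level was -2.63, -4.72, -4.37 and -3.26 in SD and -0.58, -2.60, -3.70 and -3.03 in LD ovaries at 8 wk. At 3 wk it was -2.02, -3.81, -3.71 and -3.68 in SD and -3.01, -2.86, -3.37 and -3.45 in LD ovaries. The 4 groups overlapped, and LD replicate 1 at 8 wk stood 4.04-fold above the next LD array of that age.

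The order of Egfr means was LD at 8 wk (-2.48 ± 1.34), LD at 3 wk (-3.17 ± 0.28), SD at 3 wk (-3.30 ± 0.86) and SD at 8 wk (-3.75 ± 0.97; standard deviation, n = 4 each). All neighbours in this order overlapped. At 8 wk Egfr was lower in SD than in LD on 4 of 4 slides, with differences of -2.05, -2.12, -0.67 and -0.23. The mean difference was -1.27 ± 0.59 (adjusted p = 0.707, limma) and did not pass the threshold. It was -0.64 without LD replicate 1 at 8 wk (adjusted p = 0.96). With slide as a block its standard error was 0.39 and its adjusted p 0.123. Over 51 alternatives 1 passed, the block without LD replicate 1 at 3 wk (adjusted p = 0.0459), where 670 of 20143 identifiers passed. The highest adjusted p was 1.0.

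The Egfr probe was printed in 10 spots, so that spot noise could be set beside differences between hamsters. Over at least 8 usable spots, the standard deviation within an array was 0.0398 to 0.230. Between hamsters of a group it was 0.281 to 1.34. The spread over spots does not include differences between arrays or slides.

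On slide 1 the Egfr level ran opposite to the brightness of the arrays. The 75th percentiles there were 364.8 in SD and 268.7 in LD at 8 wk, and 273.2 in SD and 369.7 in LD at 3 wk, so the dimmest array had the highest Egfr level and the brightest the lowest. The identifier most like Egfr over the 16 arrays after removal of slide means, NAP114798-1, was also high on the slide 1 arrays. Its level was 7.96 to 8.78 there and 7.08 to 7.59 on slides 2 to 4. Each level is taken relative to the array's 75th percentile, so array brightness enters the level itself. What part it had in the Egfr values was not tested. Without slide 1 the Egfr difference between SD and LD at 8 wk was -1.01 (adjusted p = 0.283).

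Egfr did not pass in the other comparisons. The difference between 8 and 3 wk was -0.44 ± 0.59 in SD and 0.70 ± 0.59 in LD (adjusted p = 0.803 and 0.742, limma). The LD value was 0.064 without LD replicate 1 at 8 wk. At 3 wk SD minus LD was -0.13 ± 0.59, with a 95% interval from -1.39 to 1.12. The 2 age changes differed by -1.14 ± 0.84 (adjusted p = 1.0). A dimmer Egfr probe was above background on 3 arrays and tracked the brighter one weakly (r = -0.156 over 16 arrays as measured, 0.257 after removal of slide means).

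Has2 encodes the hyaluronan synthase that makes the backbone of the cumulus matrix. It was above background on 1 SD and 2 LD arrays at 8 wk, and on 2 SD and 1 LD arrays at 3 wk. All of these arrays were on slides 2 and 4, and every array of slide 2 was among them. Those levels lay between -5.49 and -5.06. The signals not above background ran from -7.01 to -5.20, so both kinds overlapped. No group had Has2 above background on more than 2 of 4 arrays, and it was not tested in the fit over detected identifiers.

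Tnfaip6 encodes a hyaluronan-binding protein that transfers heavy chains onto the matrix. It was above background on 0 of 4 SD and 0 of 4 LD arrays at 8 wk, against 2 of 4 SD and 2 of 4 LD arrays at 3 wk. The detected levels at 3 wk were -5.03 and -5.41 in SD ovaries and -5.93 and -5.11 in LD ovaries. At 8 wk the signals were -6.86, -6.33, -5.35 and -6.63 in SD and -6.70, -6.89, -5.53 and -5.96 in LD ovaries. These overlapped the levels at 3 wk, so the difference in detection was not one of separate ranges.

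A fit with no detection filter took in all 8 genes and 33066 identifiers. It called 0 of 8 in each comparison, where 0.49% of identifiers passed for SD against LD at 8 wk, 0.0% at 3 wk, 4.54% for the SD age change, 1.44% for the LD age change and 0.0393% for the difference of age changes. With p under 0.05 unadjusted, the counts were 2, 0, 2, 0 and 1 of 8 in that order, beside 4.59%, 1.67%, 13.3%, 8.8% and 2.27% of all identifiers. The median log2 difference of the 8 genes was -0.01 for SD against LD at 8 wk, beside 0.04 for all identifiers. It was -0.45 for the SD age change, beside 0.08 for all identifiers, with 6 of 8 genes below 0. In the LD age change, the median was 0.03 beside -0.07, with 4 of 8 below 0. These medians and counts take in Has2, Tnfaip6, Ereg and the brighter Btc probe, above background on 6, 4, 4 and 0 arrays. The signs of such dim signals carry little weight, and the share of all identifiers below 0 was not counted. Whether the 8 genes fell together in SD ovaries therefore cannot be judged from these values.

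Ptx3 encodes pentraxin 3, a secreted protein that cross-links the hyaluronan matrix. Its level was 2.81, 1.82, 2.39 and 2.05 in SD and 1.74, 1.19, -0.09 and 2.02 in LD ovaries at 8 wk. At 3 wk it was 2.86, 4.46, 3.53 and 2.51 in SD and -0.35, 2.85, 3.88 and 3.62 in LD ovaries. LD replicate 1 at 3 wk was the lowest of all 16 arrays, while the other 3 of its group lay above every array at 8 wk.

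Ptx3 was higher in SD than in LD ovaries of 8 wk on 4 of 4 slides, with differences of 1.07, 0.63, 2.48 and 0.03. The mean difference of 1.05 ± 0.73 did not pass the threshold (adjusted p = 1.0, limma; 0.618 with slide as a block), with a 95% interval from -0.50 to 2.61. At 3 wk the difference was 0.84 ± 0.73, positive on 2 of 4 slides. The group means were 2.27 ± 0.43 in SD and 1.22 ± 0.94 in LD at 8 wk, and 3.34 ± 0.86 in SD and 2.50 ± 1.95 in LD at 3 wk (standard deviation, n = 4). Neighbours in the order of means overlapped.

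With age, Ptx3 was lower at 8 than at 3 wk in SD ovaries on 4 of 4 slides, with differences of -0.05, -2.63, -1.14 and -0.46. The mean was -1.07 ± 0.73 (adjusted p = 0.492, limma). In LD ovaries the slides gave 2.09, -1.66, -3.97 and -1.60, with a mean of -1.28 ± 0.73 (adjusted p = 0.515). The LD value was -2.24 without LD replicate 1 at 3 wk (adjusted p = 0.0307, limma), where 422 of 20143 identifiers passed. Without slide 1 it was -2.41 (adjusted p = 0.0229, limma), where 6.19% of all identifiers passed. The LD age change thus passed the threshold in fits that left out LD replicate 1 at 3 wk, and not in the fit over all 16. The SD and LD age changes differed by 0.22 ± 1.04.

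Ptx3 had a second, dimmer probe above background on all 16 arrays. Its levels followed those of the brighter probe (r = 0.986 over 16 arrays, 0.989 after removal of slide means). It gave a difference between SD and LD at 8 wk of 1.11 ± 0.76 and was higher in SD on 4 of 4 slides. The low LD array at 3 wk was also low by this probe, at -2.59, so the low value was not that of a single spot.

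**Figure D3:**
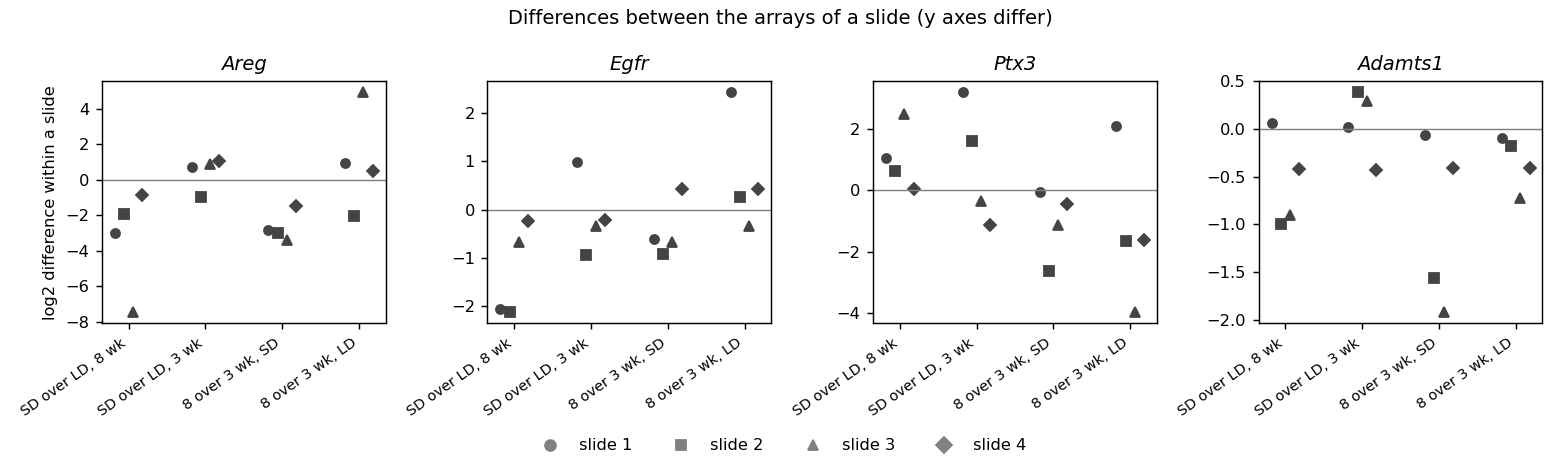
Log2 difference within each slide (y axis; the axes differ between panels) for Areg, Egfr, Ptx3 and Adamts1 in 4 comparisons, with 1 symbol per slide. The Areg points for SD over LD at 8 wk and for 8 over 3 wk in SD use SD signals not well above background, while Ptx3 in LD lay above 0 on slide 1 (2.09) and below 0 on the other 3 slides.

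Adamts1 encodes a secreted metalloproteinase that cleaves versican of the expanded matrix. Its level was -2.72, -3.25, -3.15 and -2.52 in SD and -2.78, -2.25, -2.25 and -2.10 in LD ovaries at 8 wk. At 3 wk it was -2.66, -1.69, -1.23 and -2.12 in SD and -2.68, -2.07, -1.52 and -1.69 in LD ovaries. The SD arrays at 8 wk were the lowest on slides 2, 3 and 4, and the 4 arrays of slide 1 lay between -2.78 and -2.66.

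In SD ovaries, Adamts1 was lower at 8 than at 3 wk on 4 of 4 slides, with differences of -0.06, -1.57, -1.92 and -0.41. The mean was -0.99 ± 0.30 (adjusted p = 0.0514, limma), a 1.98-fold difference. With slide as a block it fell, with a difference of -0.99 ± 0.25 (adjusted p = 0.0125). Under the block the call held in 13 of 16 fits that left out an array, where 3038 to 5421 of 20143 identifiers passed. It failed without SD replicate 2 or 3 at 3 wk or SD replicate 2 at 8 wk (adjusted p = 0.0528, 0.0529 and 0.0539, limma). Without a block, 3 of 16 such fits passed. They were those without SD replicate 1 at 3 wk (adjusted p = 0.0177, limma), LD replicate 1 at 8 wk (0.0438) or LD replicate 1 at 3 wk (0.0300). In these, 1425, 2112 and 2201 of 20143 identifiers passed. The other 13 did not pass, with adjusted p up to 0.165. The adjusted p (limma) was 0.0481 with quantile normalization (2143 of 20143 identifiers passed) and 0.0484 with detection required in every group (1781 of 17704). It was 0.0784 with no filter, 0.0985 with outlier spots kept and 0.0781 in a fit of the SD groups alone. With normexp the difference was -0.49 (adjusted p = 0.0577). Without slide 1 the difference was -1.30 (adjusted p = 0.00498, limma), where 14.2% of all identifiers passed.

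The group means of Adamts1 were -2.91 ± 0.35 in SD and -2.35 ± 0.30 in LD at 8 wk, and -1.92 ± 0.61 in SD and -1.99 ± 0.51 in LD at 3 wk (standard deviation, n = 4). In the order of these means, neighbours overlapped. In LD ovaries the age change was -0.35 ± 0.30 (adjusted p = 0.744, limma), lower at 8 wk on 4 of 4 slides. The SD change minus the LD change was -0.63 ± 0.43 (adjusted p = 1.0), so the 2 age changes were not shown to differ. At 8 wk SD minus LD was -0.57 ± 0.30 (adjusted p = 0.863; 0.323 with slide as a block). At 3 wk it was 0.07 ± 0.30, with a 95% interval from -0.57 to 0.71.

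The other Adamts1 probe did not follow. It was above background on 11 of 16 arrays and correlated with the brighter probe at r = -0.0849 over 16 arrays, and at -0.663 after removal of slide means. In SD ovaries it was higher at 8 than at 3 wk on 4 of 4 slides, with differences of 0.35, 0.18, 0.67 and 0.01. Its mean difference was 0.30 ± 0.35 (adjusted p = 0.888 without a filter, limma). The lower Adamts1 signal in SD at 8 wk is thus a result of 1 of 2 probes.

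**Figure D4:**
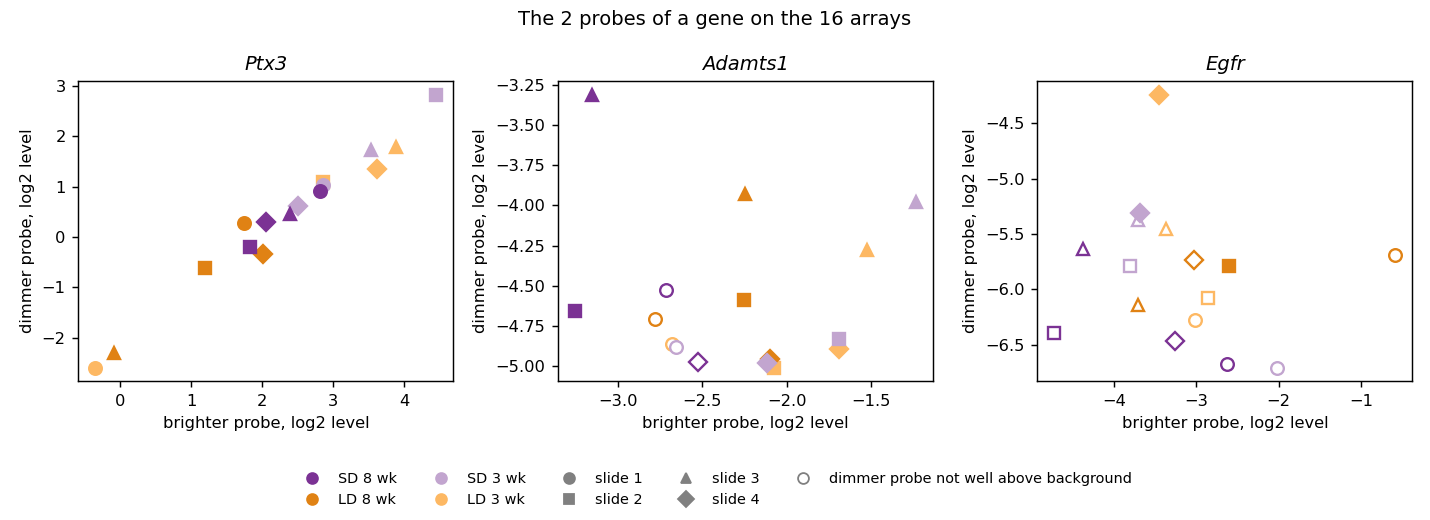
Levels of the dimmer probe (y axis) against the brighter probe (x axis) of Ptx3, Adamts1 and Egfr on 16 arrays, in log2 units relative to each array's 75th percentile, coloured by group, with symbols by slide. The Ptx3 probes rose together (r = 0.986), those of Adamts1 (r = -0.0849) and Egfr (r = -0.156) did not, and open symbols are dimmer signals not well above background.

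Arrays of the same group, each of 1 hamster on its own slide, differed more in 3 of these genes than in nearly all others measured. Differences between hamsters, slides and arrays all enter this spread, and identifiers were not matched for brightness. The pooled standard deviation within groups was 1.36 log2 units for Areg, above 99.5% of 18648 identifiers measured on every array. It was 1.18 for Ptx3 (above 99.2%) and 0.943 for Egfr (above 97.8%), against a median of 0.336. For Adamts1 it was 0.459, above 73.9%. With slide means removed, Areg had 1.47 (above 99.9%), Ptx3 1.29 (99.8%), Egfr 0.639 (96.9%) and Adamts1 0.400 (86.8%), against a median of 0.210. These values rested partly on single arrays. Areg had 0.709 without LD replicate 3 at 8 wk (above 93.1% of identifiers on the same arrays), and Ptx3 had 0.736 without LD replicate 1 at 3 wk (above 94.7%). Egfr had 0.731 without LD replicate 1 at 8 wk (above 95.8%). Of the 16 Areg values, 5 were not well above background.

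Levels of the 4 genes were also set against each other over the arrays. After removal of slide means, r over the 16 arrays was 0.434 for Areg with Egfr, -0.270 for Areg with Ptx3 and 0.0686 for Egfr with Ptx3. Adamts1 had 0.486 with Ptx3, 0.428 with Areg and 0.360 with Egfr. Among 18647 identifiers ranked from the highest r with Adamts1, Ptx3, Areg and Egfr stood at 3136, 3839 and 4728. Ranked by r with Areg, Egfr stood at 1282 and Ptx3 at 14784, and by r with Egfr, Ptx3 stood at 6956. These correlations describe 16 arrays that share slides and groups, and they include differences between groups.

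The identifier most like Areg was NM_018865 (r = 0.937 over 16 arrays, slide means removed). Its level was -1.24, -0.78, -0.76 and 0.02 in SD and 0.10, 0.20, 2.68 and 0.52 in LD ovaries at 8 wk. At 3 wk it ran from 0.29 to 0.76 in SD and from 0.19 to 1.02 in LD ovaries. That both share their highest array and lowest group follows from choosing it by this correlation. The most similar identifier to Ptx3 was XM_135029 (r = 0.921), with 3.36 in the LD ovary at 3 wk where Ptx3 was lowest and 4.26 to 5.12 in the other 3 of that group. For Adamts1 it was NM_001081049 (r = 0.901), at 1.84 to 3.08 in SD ovaries at 8 wk and 2.17 to 3.02 in SD ovaries at 3 wk.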

How the data were processed

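Ovarian RNA of 16 hamsters was hybridised singly to 1-colour Agilent mouse arrays, 4 hamsters for each age and day length. Per the file headers, the authors read 45018 spots per array with Agilent Feature Extraction 10.5.1.1, and the deposited scanner files give background-corrected intensity values, linear and without normalization across arrays. A value table that the authors also deposited repeats them: 4 of 720288 cells differed by over 0.5%, and its column medians were 26.6 to 91.5. The alignment of probes and their genome positions are not given in the sources used here.

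The members and lists were chosen with earlier results of these data known. Control spots (leaving 43379 spots) and outlier spots were left out, spots of a probe were averaged as log2, and each array's 75th percentile over probes was subtracted. Probes had to be well above background on the 4 arrays of 1 group or more, with values on 12 arrays or more and on 2 or more of every group and slide. An identifier was read from its brightest probe, and no spot was saturated. limma 3.58.1 in R 4.3.3 fitted all 16 arrays together with an intensity trend, with Benjamini-Hochberg adjustment over 20143 identifiers and a threshold of 0.05. The procedure was tested on simulated data with normal noise, no detection floor and no outlying arrays, so that test does not cover dim or outlying signals. Slide as a fixed block is the main alternative. Every group has 1 array on each slide, and the slides were scanned on 3 days. Background correction by normexp used an offset of 50 on median signals. All 8 genes are named whatever their values, with the 1 identifier most correlated with each tested gene. Other pathway genes and cell type markers need symbols, which the files do not pair with identifiers, so they were not analysed here, and no sequence is shown. The number of arrays limits precision throughout.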

Additional observations from a re-analysis of the deposited data

Results flagged for a closer look

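Dixon's test was applied to the 8 genes in each of 4 groups, 32 sets of 4 arrays in all, and marked 3 arrays as far from the others of their group, where chance marks about 1 in 20 sets. Areg stood at -2.82 in LD replicate 2 at 3 wk, above the other 3 LD ovaries of that age. Areg also stood at -5.28 in SD replicate 4 at 8 wk, above the other 3, although none of the 4 signals was well above background. Egfr stood at -2.02 in SD replicate 1 at 3 wk, above the other 3, on the array whose 75th percentile of intensity was 273.2. The Areg level of 0.34 in LD replicate 3 at 8 wk was not marked, with a gap of 0.804 of the group's range, just under Dixon's critical value.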

How the results depend on the processing

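Over all alternatives, 939 member values kept direction and side of the threshold, 42 came to pass it and 25 changed sign. The normexp alternative gave 0.0014 for Egfr in SD against LD at 3 wk. In the LD age change, 1 gene was called without slide 1, with or without the block, where 10.8% and 6.19% of all identifiers passed. In the SD age change, 2 genes were called with slide as a block (23.1% of all identifiers), also with the percentile over all spots (4879 of 20143 identifiers). There 1 was called with quantile normalization, with detection in every group, with only the groups compared and without slide 1. Of all identifiers, 2143 of 20143 passed with quantile normalization and 1781 of 17704 with detection in every group. The shares were 8.58% with only the groups compared and 14.2% without slide 1. With the block, 1 was called with no filter, with detection in every group, without slide 1 and with dim signals raised. In these fits 4031 of 33066, 4449 of 17704, 4448 of 20143 and 4607 of 20143 identifiers passed, in that order. Leaving out each array in turn, with and without the block, gave 0 to 1 calls for SD against LD at 8 wk, 0 to 1 for the LD age change and 0 to 2 for the SD age change. Over the same fits SD minus LD at 3 wk ranged from -0.18 to 1.41 for Ptx3, -0.029 to 1.12 for Areg, -0.56 to 0.15 for Egfr and -0.16 to 0.31 for Adamts1. The LD age change of Areg ranged from -0.21 to 1.76, and the difference of age changes of Ptx3 from -0.41 to 1.23. With dim SD signals raised, the Areg fold between SD and LD at 8 wk ranged from 1.78 to 5.93 when single arrays were left out. Counts over all identifiers were 82 to 670 for SD against LD at 8 wk, 0 to 3 at 3 wk, 1139 to 5421 for the SD age change, 220 to 2420 for the LD age change and 4 to 90 for the difference of age changes, against 193, 0, 1844, 601 and 12 without the block and 528, 0, 4655, 2394 and 35 with it. The labels give no replicate numbers, so the fit with slide as a block is the paired analysis here. The causes of these changes were not tested. Floor, percentile over all spots and the combined block fits were added after seeing the data. Signals near background limit Has2, Tnfaip6, Ereg, Btc and the SD level of Areg at 8 wk.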
